A study of Mus musculus with 4 samples.

Results

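NF45, encoded by Ilf2, and 8 other genes whose proteins bind double-stranded RNA or carry the NF45-type DZF domain were described in Beta-TC-6 cells, a mouse pancreatic beta cell line, after depletion of NF45. The genes were chosen by name: Ilf2, its DZF-domain relatives Zfr and Strbp, the RNA helicase Dhx9, the RNA editing enzymes Adar and Adarb1, the Staufen proteins Stau1 and Stau2, and the kinase activator Prkra. Each had a single probe set of its own, so these are 9 of the 22180 genes that had a probe set with 1 gene symbol. There were 4 samples, each hybridised to its own Affymetrix Mouse Gene 2.1 ST array. The control cells (siNTC, 2 samples) were transfected with a negative control siRNA, and the depleted cells (siNF45, 2 samples) with a mixture of RNAi duplexes against NF45. Both groups were grown in high-glucose DMEM with serum and antibiotics and transfected with the same lipid reagent. The labels give neither the duplex sequences nor the time after transfection. Nor do they tell if the 2 samples of each group are independent cultures, and p-values therefore reflect a spread that could be technical alone.

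Double-stranded RNA forms where a transcript folds back on itself or pairs with another, and proteins with double-stranded RNA-binding domains act on such structures in editing, microRNA maturation, transport, translation and decay. NF45 has no such domain of its own. It pairs through its DZF domain with partners that do have one, and is known to stabilise that complex. ADAR enzymes turn adenosine into inosine in double-stranded RNA, and in beta cells and neurons editing of glutamate receptor transcripts is a familiar case.

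The sequences around the transcription start of the 3 members with the largest differences are shown to place these genes. They come from RefSeq (GRCm38.p6), where 8 of the 9 members matched, with 12 windows, each from 250 bases before to 50 after an annotated start. Stau2 was not matched. In the Ilf2 window (chr3:90475951-90476250, plus strand) capitals mark CCAAT or its complement on the other strand. In the Dhx9 window (chr1:153487611-153487910, minus strand) they mark CGGAAG, the core of ETS factor sites. In the third window of Adar (chr3:89730468-89730767, plus strand) they mark AANNGAAA, the core of interferon regulatory factor (IRF) sites.
Ilf2: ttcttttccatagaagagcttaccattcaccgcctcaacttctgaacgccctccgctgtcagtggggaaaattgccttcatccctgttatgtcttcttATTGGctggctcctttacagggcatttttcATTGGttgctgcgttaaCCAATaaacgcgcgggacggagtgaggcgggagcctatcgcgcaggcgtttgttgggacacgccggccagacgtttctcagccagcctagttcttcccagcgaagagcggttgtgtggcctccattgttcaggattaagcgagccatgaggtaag
Dhx9: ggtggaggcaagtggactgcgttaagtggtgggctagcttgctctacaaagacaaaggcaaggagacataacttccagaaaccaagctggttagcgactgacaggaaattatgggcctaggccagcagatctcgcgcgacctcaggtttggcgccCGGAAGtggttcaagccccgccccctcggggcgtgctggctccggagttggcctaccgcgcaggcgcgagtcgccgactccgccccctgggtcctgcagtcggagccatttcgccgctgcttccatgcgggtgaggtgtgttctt
Adar: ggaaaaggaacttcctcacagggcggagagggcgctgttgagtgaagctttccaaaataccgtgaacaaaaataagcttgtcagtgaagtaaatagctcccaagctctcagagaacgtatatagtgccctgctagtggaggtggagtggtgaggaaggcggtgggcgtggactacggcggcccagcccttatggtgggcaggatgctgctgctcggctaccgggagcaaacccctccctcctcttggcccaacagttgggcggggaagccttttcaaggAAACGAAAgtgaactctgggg
Each motif was searched on both strands, and none of the 3 windows held a match to the motifs marked in the other two. CCAAT occurred 3 times in the Ilf2 window, with matches beginning at -152, -122 and -105 from the start, and 37.4% of all 32851 windows held it at least once. CGGAAG occurred 1 time in the Dhx9 window, at -95, and in 16.9% of all windows. The IRF core occurred 1 time in the third Adar window, 29 bases after the start, and in 23.9% of all windows. The other 2 Adar windows held no AANNGAAA, and each held 1 CCAAT match. A match is a description of the letters only. RNA interference acts on the mature transcript, and no promoter activity was measured.

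The 4 arrays had similar medians, of 1.64 to 1.66 over all probe sets (log2). The quartiles lay closer together in siNF45. The lower quartile was 1.17 and 1.2 in siNTC and 1.22 and 1.24 in siNF45. The upper quartile was 3.36 and 3.31 in siNTC and 3.29 and 3.2 in siNF45. Centring the arrays leaves this difference in spread as it is. The tested genes, whose mean over all arrays reached 1.65, the median of all probe sets, had medians of 3.76 to 3.82 in siNTC and 3.6 to 3.72 in siNF45. Over all 11742 tested genes the median change was -0.065. Centring each array on its median over these genes adds 0.13 to every change, so changes between -0.13 and 0 turn direction with it. All 7 of the measured beta cell markers reached the signal minimum. The 4 of smallest p, none of which passed, were the glucose transporter Slc2a2 (change -0.165), the insulin gene Ins2 (0.175), the transcription factor Neurod1 (-0.15) and the granule peptide Iapp (-0.05, or 0.08 after centring). The summed log2 level of all 7 was 44.36 to 44.64 in siNTC and 44.07 to 44.4 in siNF45. Of the 10 markers of cells outside the endocrine pancreas, 3 reached the minimum. The sum over all 10, of which 7 lay under the minimum, was 15.81 to 16.65 in siNTC and 16.67 to 16.78 in siNF45. It is thus made up largely of values near the floor. The duct marker Krt7 read 3.41 and 3.13 in siNTC and 3.91 and 3.96 in siNF45, a change of 0.665 (limma adjusted p = 0.132). After centring its limma adjusted p was 0.043, where 1.46% of all tested genes passed. Krt19, also a duct marker, stayed under the minimum and differed by -0.195. Col1a2 differed by -0.19 and Cd68 by -0.16. Of 5 markers of other islet cells, 3 reached the signal minimum. The sum over all 5 was 21.26 to 21.63 in siNTC and 20.65 to 21.4 in siNF45. Somatostatin (Sst) was lower on both siNF45 arrays, with a change of -0.885 (limma adjusted p = 0.104). Its limma adjusted p was 0.0546 after centring and 0.024 with a trend in eBayes, where 1.48% of all tested genes passed. Ppy was higher on both siNF45 arrays, with a change of 0.515 (limma adjusted p = 0.307). Gcg differed by -0.02, or 0.11 after centring. The part of these markers in the results below was not tested.

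Ilf2 itself fell upon siNF45 transfection. Its log2 expression value was 5.79 and 5.98 in control cells, against 3.67 and 3.77 in depleted cells. The groups lay far apart, and the siNF45 arrays were 0.1 apart. The change was -2.17 (SE 0.13, 95% interval -2.49 to -1.84, n = 2 each), with a limma adjusted p of 0.020. In these bulk samples, fewer cells expressing a gene and less RNA per cell cannot be told apart. On the linear scale the siNF45 mean was 22.3% of the siNTC mean, and the 4 pairings of a siNF45 with a siNTC array gave 20.2% to 24.7%. The smallest two-sided p that an exact permutation test can give with these arrays is 0.333, and Ilf2 gave that value. Ilf2 was the only member that passed the adjusted threshold of 0.05, where 10 of all tested genes, or 0.0852%, did. The call was lost when any of the 4 arrays was left out, with limma adjusted p between 0.307 and 0.471 and a change between -2.26 and -2.07, and with the replicate number as a block (-2.17, limma adjusted p = 0.258).

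**Figure D1:**
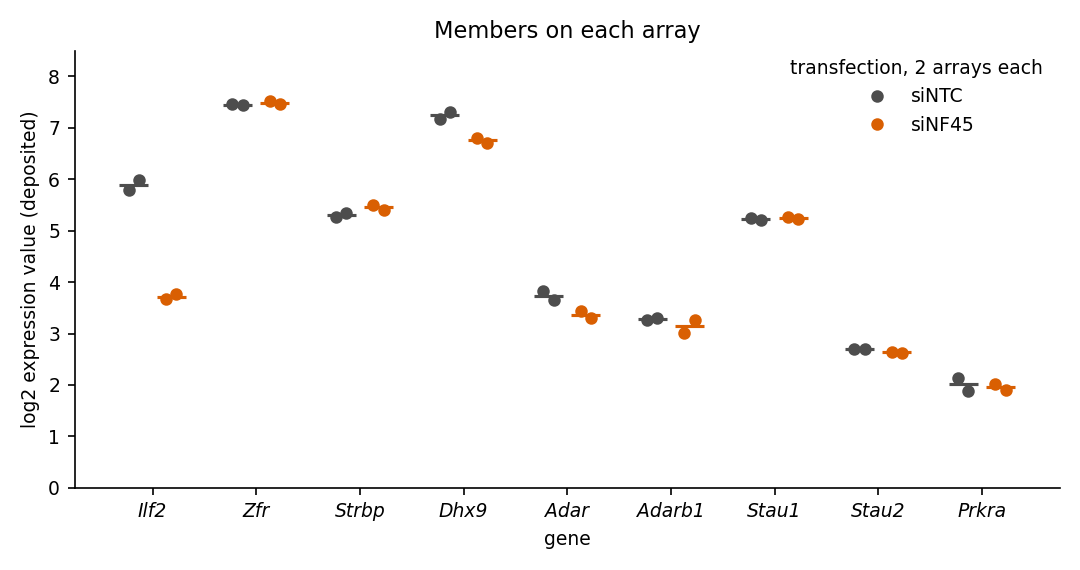
Deposited log2 expression value (vertical axis) of each of the 9 members on each array, siNTC in grey and siNF45 in orange, with points for the 2 arrays of a group and a bar for their mean. Ilf2 drops from 5.79 and 5.98 to 3.67 and 3.77, Dhx9 and Adar lie lower on both siNF45 arrays, and the other 6 members differ by less than 0.2 between group means.

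The values of the groups did not overlap for 5 of the 9 members, as for 47.8% of all tested genes. On both siNF45 arrays, Ilf2, Dhx9, Adar and Stau2 were below both siNTC arrays, 4 members where 32.6% of all tested genes did so, and Strbp was above both, where 15.2% did so. Ilf2 is the target of the duplexes, and its place among the lower members in these and the next counts was given by the design. At an unadjusted limma p under 0.05 there were 3 lower members (Ilf2, Dhx9 and Adar) and 0 higher ones, against 13.2% and 4.02% of all tested genes. Adar left this count, which was then 2, with quantile scaling, centred arrays or a trend in eBayes, and without siNTC replicate 1, siNF45 replicate 1 or siNF45 replicate 2. The median change of the members was -0.065, the same as that of all tested genes, and both were 0.065 after centring.

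The DZF-domain relatives of NF45 did not show the change of Ilf2. Zfr, a zinc finger protein that binds double-stranded RNA and takes part in splicing, read 7.46 and 7.44 in siNTC and 7.52 and 7.46 in siNF45. The groups touched at 7.46. Its change was 0.04 (SE 0.12, 95% interval -0.25 to 0.33, limma adjusted p = 0.903). Strbp, the spermatid perinuclear RNA-binding protein, read 5.26 and 5.34 in siNTC and 5.5 and 5.41 in siNF45. Both siNF45 arrays were higher, by 0.07 at the closest pair of arrays. The change was 0.155 (SE 0.12, 95% interval -0.14 to 0.45, limma adjusted p = 0.564), and 16.7% of tested genes had a higher one. Neither interval reaches a change of the size seen for Ilf2.

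Dhx9, a helicase that unwinds double-stranded RNA and is known as a partner of the NF45 complex, was the member with the next lowest change. It read 7.18 and 7.31 in siNTC and 6.81 and 6.7 in siNF45. The groups did not overlap, and the closest pair of arrays was 0.37 apart, more than the gaps of 0.13 and 0.11 within the groups. The change was -0.49 (SE 0.13, 95% interval -0.80 to -0.18), or 71.2% of the siNTC level on the linear scale. It did not pass (limma adjusted p = 0.157, unadjusted p = 0.00885). A lower change was seen in 7.83% of tested genes. After centring the arrays the change was -0.36, and leaving out an array gave -0.555 to -0.425. The limma adjusted p came nearest to the threshold when eBayes was run with a trend, at 0.054.

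The editing enzymes both had changes below 0, and neither passed. Adar, which encodes the broadly expressed ADAR1, read 3.83 and 3.65 in siNTC and 3.43 and 3.31 in siNF45. The groups did not overlap, with 0.22 between the closest arrays and gaps of 0.18 and 0.12 within the groups. The change was -0.37 (SE 0.13, 95% interval -0.70 to -0.04), which did not pass (limma adjusted p = 0.245, unadjusted p = 0.0326). It was -0.28 without siNTC replicate 1, -0.46 without siNTC replicate 2 and -0.24 after centring. Whether the probe set reads the long interferon-induced form of ADAR1, the short constitutive form or both is not known here. Adarb1, which encodes ADAR2, read 3.27 and 3.3 in siNTC and 3.01 and 3.27 in siNF45. The groups touched at 3.27, and a single siNF45 array was lower. The change was -0.145 (SE 0.14, 95% interval -0.49 to 0.20, limma adjusted p = 0.647), and without siNF45 replicate 1 it was -0.015. The changes of Adar and Adarb1 differed by -0.225 (SE 0.22 without moderation, exact permutation p = 0.667 over the 4 arrays). That was less than the 0.38 by which this difference varied between the siNF45 arrays.

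The Staufen proteins, which carry mRNAs and recruit decay factors to double-stranded stretches, differed little between the groups. Stau1 read 5.24 and 5.2 in siNTC and 5.27 and 5.22 in siNF45. These values overlapped, and the change was 0.025 (SE 0.12, 95% interval -0.26 to 0.31, limma adjusted p = 0.943). Stau2 read 2.7 on both siNTC arrays, against 2.64 and 2.63 in siNF45. The arrays of a group were almost equal, so the groups were apart although the change was -0.065, the median of all tested genes (SE 0.12, 95% interval -0.35 to 0.22, limma adjusted p = 0.822). After centring it turned to 0.065. The difference between the changes of Stau1 and Stau2 was 0.09 (SE 0.03 without moderation, exact permutation p = 0.333). That between Zfr and Strbp was -0.115 (SE 0.05 without moderation, exact permutation p = 0.333). Over the 3 pairs compared, the exact permutation p adjusted by Benjamini-Hochberg were 0.667 for Adar and Adarb1 and 0.5 for the others, and with 2 arrays against 2 no pair could pass.

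Prkra, which encodes PACT, an activator of the kinase PKR and a cofactor of Dicer, read 2.13 and 1.89 in siNTC and 2.01 and 1.91 in siNF45, so the siNF45 arrays lay between the siNTC arrays. The change was -0.05 (SE 0.14, 95% interval -0.39 to 0.29, limma adjusted p = 0.896). Its direction turned to 0.08 after centring and to 0.07 without siNTC replicate 1. Signals of different genes were not ranked against each other, since probe sets differ in how strongly they bind.

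**Figure D2:**
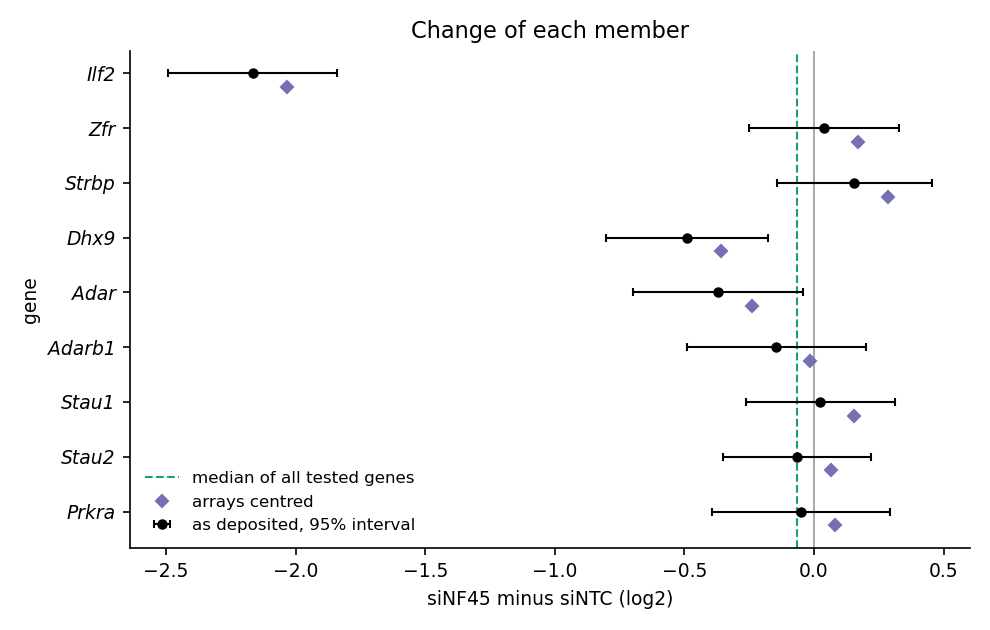
Change of each member, siNF45 minus siNTC on the log2 scale (horizontal axis). Black points are the values as deposited with limma's 95% interval, purple diamonds the values after centring the arrays, and the dashed line is the median of all tested genes (-0.065). The intervals of Ilf2, Dhx9 and Adar lie below 0, and those of the other 6 members include 0.

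The genes whose pattern over the 4 arrays lay nearest to Ilf2, by Euclidean distance between profiles centred on their own mean, were Kcnq3, a potassium channel subunit (0.022), the cadherin Cdh11 (0.227), Nexmif (0.236), Reln, which encodes reelin (0.403), and the neuropeptide galanin (Gal, 0.413). Their values are descriptions over 4 arrays. Kcnq3, the nearest, read 4.54 and 4.71 in siNTC and 2.39 and 2.51 in siNF45. Of all tested genes it alone had a lower change than Ilf2, at -2.175. No member other than Ilf2 was among these genes.

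Among 9 other tested genes with a DZF or double-stranded RNA-binding domain, none passed the adjusted threshold of limma. At an unadjusted limma p under 0.05, 2 were lower and 1 was higher, against 13.2% and 4.02% of all tested genes. Their median change was -0.205, beside -0.065 for all tested genes. Drosha, the nuclease that cuts primary microRNAs, read 5.49 and 5.3 in siNTC and 4.81 and 4.83 in siNF45, a change of -0.575 (SE 0.13, limma adjusted p = 0.134). Both siNF45 arrays were lower by more than the spread within either group. Tarbp2, the PACT-related cofactor of Dicer, read 2.21 and 2.38 in siNTC and 1.87 and 2.04 in siNF45. Its change was -0.34 (SE 0.14, limma adjusted p = 0.285). Adarb2, an ADAR family member without known editing activity, went the other way, with 2.52 and 2.85 in siNTC and 3.12 and 3.02 in siNF45. Its change was 0.385 (SE 0.15, limma adjusted p = 0.287), and 0.22 without siNTC replicate 1. With a trend in eBayes, with the replicate block, and in 3 of the 4 fits that left out an array (all but that without siNTC replicate 2), its unadjusted p was above 0.05. Nkrf, a repressor of NF-kappa-B targets, differed by -0.285 (SE 0.13, limma adjusted p = 0.327). Eif2ak2, which encodes the double-stranded RNA-activated kinase PKR, differed by -0.205, and Dicer1 by 0. The 2 lower genes became 1 with quantile scaling, centred arrays or a trend in eBayes. A filter at the 70th percentile also gave 1, but it left 7 genes tested, and Tarbp2 was not among them. The change of Tarbp2 was -0.425 without siNTC replicate 1 or siNF45 replicate 2. It was -0.255 without either of the other arrays. After centring the median was -0.075, beside 0.065 for all tested genes. The median was -0.005 without siNF45 replicate 2. Zfr2, Adad1 and Adad2 stayed under the signal minimum.

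Proteins known to work with the NF45 complex or with Staufen gave 8 tested genes, of which none passed. By unadjusted limma p under 0.05, 1 was higher and 0 were lower, against 4.02% and 13.2% of all tested genes. The median change was 0.018, beside -0.065 for all tested genes. The higher gene was Xrcc5, the Ku80 subunit of the DNA end-binding Ku dimer, with 4.93 and 5.08 in siNTC and 5.26 and 5.48 in siNF45, a change of 0.365 (SE 0.14, limma adjusted p = 0.271). Xrcc6, which encodes the other subunit Ku70, read 3.21 and 3.02 in siNTC and 3.72 and 3.31 in siNF45, a change of 0.4 (SE 0.18, limma adjusted p = 0.324). It was 0.195 without siNF45 replicate 1 and 0.605 without siNF45 replicate 2. Both Ku subunits were higher on both siNF45 arrays, as were 15.2% of all tested genes. Their partner Prkdc, the DNA-dependent protein kinase, differed by 0.015. Hnrnpu, an abundant nuclear RNA-binding protein, differed by -0.215 (SE 0.12, limma adjusted p = 0.416) and Xpo5, the exporter of microRNA precursors, by 0.08. Upf1, the decay helicase recruited by Staufen, differed by -0.055, or 0.075 after centring. The change of Xrcc5 was 0.255 without siNF45 replicate 2 and 0.475 without siNF45 replicate 1. Without siNTC replicate 1 it was 0.29, and without siNTC replicate 2 it was 0.44. For Xrcc6 these 2 values were 0.495 and 0.305. The sizes of both Ku changes thus depended on single arrays. With quantile scaling, centred arrays or the replicate block, 2 genes were higher at an unadjusted limma p under 0.05, Xrcc5 and Xrcc6. With a trend in eBayes, 1 was higher and 1 lower. The median change was -0.03 without siNTC replicate 2 and -0.005 without siNF45 replicate 1.

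**Figure D3:**
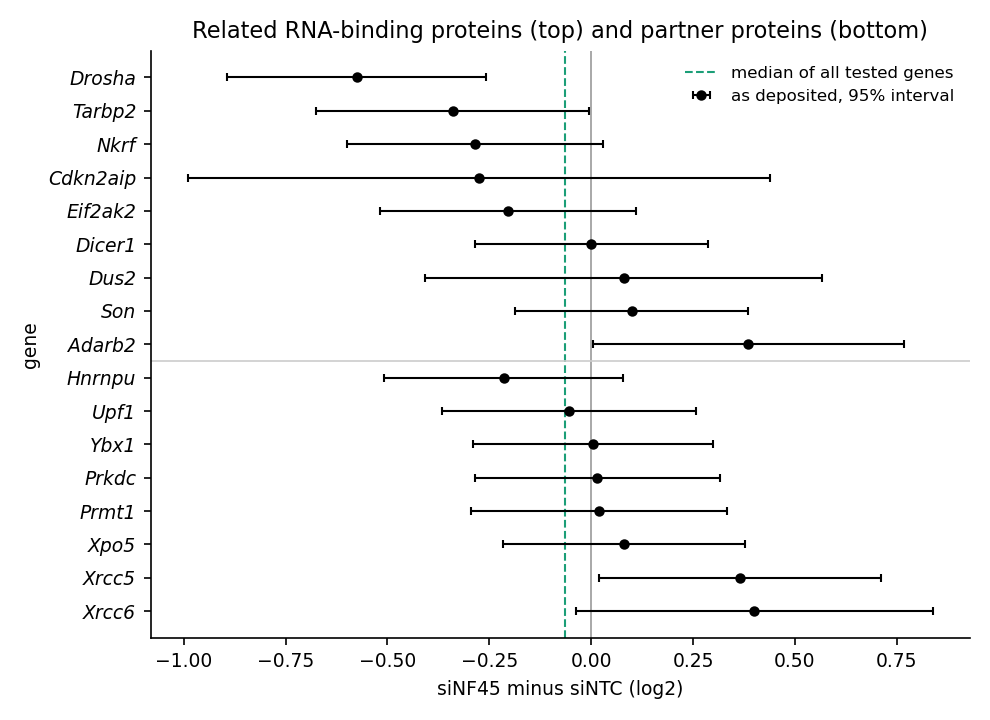
Change on the log2 scale (horizontal axis) with limma's 95% interval for the 9 tested genes with related domains (upper block) and the 8 tested partner proteins (lower block). Drosha at -0.575 lies farthest below 0 and Xrcc6 at 0.4 farthest above, and the dashed line is the median of all tested genes.

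Transcripts known to be edited by ADAR enzymes were examined as levels only, since the arrays do not read editing. Of 15 tested members none passed the adjusted threshold of limma. At an unadjusted limma p under 0.05, 5 were lower and 0 higher, against 13.2% and 4.02% of all tested genes. Changes below 0 were found in 11 of the 15, where 61.3% of all tested genes had one. The median was -0.24, beside -0.065 for all tested genes. Gria2, the AMPA receptor subunit whose pore codon ADAR2 edits, read 5 and 4.61 in siNTC and 3.9 and 3.78 in siNF45. Both siNF45 arrays were lower by more than the spread within either group, with a change of -0.965 (SE 0.17, limma adjusted p = 0.097). Azin1, the antizyme inhibitor edited by ADAR1, read 5.75 and 5.73 in siNTC and 4.98 and 5.08 in siNF45. Its change was -0.71 (SE 0.12, limma adjusted p = 0.094), again larger than the spread within the groups. Neil1, a DNA repair glycosylase, differed by -0.465 (SE 0.13, limma adjusted p = 0.181) and Igfbp7, an IGF-binding protein, by -0.475 (SE 0.15, limma adjusted p = 0.213). The filamin Flna differed by -0.24 (95% interval -0.55 to 0.07). The highest change was 0.1, in the granule priming factor Cadps. With a trend in eBayes, Gria2 and Azin1 passed (limma adjusted p = 0.047 and 0.030), where 1.48% of all tested genes did. After centring, Gria2 passed (limma adjusted p = 0.043), where 1.46% of all tested genes did. After centring, 2120 of all 11742 tested genes had an unadjusted limma p under 0.05 in either direction. The number of lower members by unadjusted p was then 2, with a median of -0.11, beside 0.065 for all tested genes. The same number was 3 without siNTC replicate 1, without siNTC replicate 2 or without siNF45 replicate 1. The part of the lower Adar values in these levels was not tested.

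**Figure D4:**
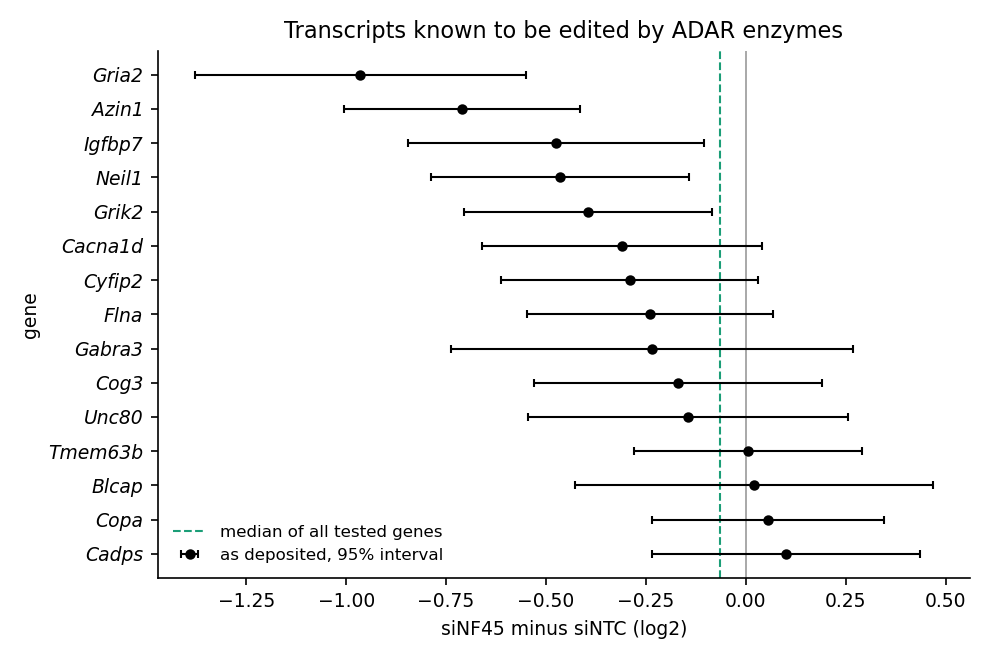
Change on the log2 scale (horizontal axis) with limma's 95% interval for the 15 tested transcripts known to be edited by ADAR enzymes, sorted by change. The points run from -0.965 for Gria2 to 0.1 for Cadps, and 5 intervals lie wholly below 0.

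Among 5 tested transcripts known as targets of the NF45 complex or of Staufen, none passed, and 0 had an unadjusted limma p under 0.05, against 13.2% lower and 4.02% higher among all tested genes. Their median change was -0.02, or 0.11 after centring. Without siNTC replicate 2 the median was -0.215 and Vegfa had an unadjusted limma p of 0.0374. Vegfa, the vascular growth factor, differed by -0.255 (95% interval -0.64 to 0.13), which became -0.435 without siNTC replicate 2 and -0.075 without siNTC replicate 1. Changes were also measured for the cell cycle inhibitor Cdkn1a at 0.155 (95% interval -0.19 to 0.50) and the caspase inhibitor Xiap at -0.14 (-0.51 to 0.23). Arf1, the Staufen decay target, read 9.43 and 9.75 in siNTC and 9.6 and 9.7 in siNF45, with a change of 0.06. Birc2, which encodes cIAP1, differed by -0.02 (95% interval -0.52 to 0.48), by 0.11 after centring and by -0.275 without siNTC replicate 2. Il2 stayed under the signal minimum.

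Of 8 measured sensors of double-stranded RNA, 2 reached the signal minimum. Ddx58, which encodes RIG-I, read 1.95 and 2.25 in siNTC and 2.2 and 1.46 in siNF45, and Mavs, the adaptor downstream of it, read 2.53 and 1.75 in siNTC and 1.89 and 1.86 in siNF45. Both overlapped between the groups, with changes of -0.27 (95% interval -0.92 to 0.38) and -0.265 (-0.91 to 0.38). Ifih1, which encodes MDA5, the sensor that ADAR1 editing is known to restrain, read 1.69 and 1.6 in siNTC and 1.53 and 1.48 in siNF45, under the minimum. The toll-like receptor Tlr3, Zbp1, Dhx58, Oas2 and Oas3 stayed under it as well.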

How the data were processed

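The authors deposited their own log2 expression values, 1 for each probe set on each array. Transcriptome Analysis Console was used, per the submitters' processing notes. Its version, the summarisation, any background correction and the log base were not stated in the material used. Values of 0.12 to 12.21 were taken as log2. Columns are named by sample and genes are not centred. Of 41345 probe sets, 23521 had 1 gene symbol in the platform annotation, 1814 several and 16010 none here. Tested were genes with a mean of 1.65 or more over all 4 arrays, the median of all probe sets, taking the brightest probe set per gene (11742 genes). The test was limma 3.58.1 under R 4.3.3 (lmFit, eBayes, no covariate; 2 residual degrees of freedom, prior 3.69), with Benjamini-Hochberg adjustment over all tested genes and a threshold of 0.05. The script was tested on simulated data. Changes are siNF45 minus siNTC, with moderated SE. The SE of the 3 pair comparisons was not moderated and rests on the 2 arrays of each group alone. Replicates numbered alike in siNTC and siNF45 were treated as unpaired. No detection call, batch or date was used, and the number of arrays limits the precision.

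The members and gene lists were chosen with earlier results of these data known. Named were the 9 members, in each list the 4 genes of smallest p, and the 5 genes nearest to Ilf2. Further list genes were named after their values were seen, and the motifs were chosen after the sequences were read. Some list members are not reported here. The alternatives changed the filter (none, or the 70th percentile), the scaling (quantile, or centred arrays), the spread (eBayes with a trend, or robust), the pairing (a replicate block), the probe sets (mean per gene) and the arrays (each left out in turn).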

Additional observations from a re-analysis of the deposited data

How the results depend on the processing

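Ilf2 kept its direction in all 12 alternatives run, from -2.26 to -2.04, and was the only member called wherever a member was called. Genes past the threshold numbered 10 as deposited, 87 with the stricter filter (70th percentile), 62 with quantile scaling, 172 with centred arrays and 174 with a trend in eBayes. With the replicate block 0 genes and 0 members passed, with 1909 genes at an unadjusted limma p under 0.05, and Ilf2 was at -2.17. The labels do not settle the pairing, and deviations of like-numbered replicates correlated at 0.0062 over genes. Leaving out each array gave 0 genes and 0 members every time, with the spread of the remaining pair standing in for the lone array. Between 1236 and 1670 genes then had an unadjusted limma p under 0.05, and Ilf2 ranged from -2.26 to -2.07. Higher calls were 1 of 10 as deposited, 18 of 62 with quantile scaling and 71 of 172 with centred arrays. The cause of these differences was not tested. Dhx9, Adar, Adarb1, Strbp and Zfr kept their direction and stayed uncalled in all 12 alternatives. Prkra turned to 0.08 after centring and ranged from -0.17 to 0.07 without 1 array. Stau2 turned to 0.065 after centring, and Stau1 came to 0 without siNF45 replicate 1. The stricter filter left out Stau2 and Prkra.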

Other observations

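Adar and Ilf2 lie on the same mouse chromosome with 22 protein-coding genes between them in the gene order of GRCm38.p6, and 18 of those genes were tested. They were looked at after the members' values were seen. None passed the adjusted threshold of limma. At an unadjusted limma p under 0.05, 2 were lower and 1 was higher, against 13.2% and 4.02% of all tested genes. The median change was -0.108, or 0.023 after centring. Below 0 lay 13 of the 18, or 6 after centring, where 61.3% of all tested genes lay below 0 as deposited. The lower genes were Atp8b2, a phospholipid transporter subunit, at -0.525, and the ribosomal protein gene Rps27 at -0.495. The higher gene was the interleukin 6 receptor Il6ra at 0.325. Ints3, a subunit of the Integrator complex, differed by -0.13, or by 0 after centring, and Ubap2l by -0.085, or by 0.045 after centring.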
